A study of Homo sapiens with 3 samples.

Results

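The genes that encode the proteins of the cytosolic ribosome were examined in HaCaT cells, a spontaneously immortalised human keratinocyte line. A gene was taken as a member when its symbol was RPL or RPS followed by a number, with or without a closing A or X, or when it was RPLP0, RPLP1, RPLP2 or RPSA. This rule gave 77 of the 57773 rows of the deposited table, 46 for proteins of the large subunit and 31 for proteins of the small subunit. It left out pseudogenes, whose symbols carry a P, and ribosomal protein genes whose symbols follow another pattern, such as FAU, whose product is made as a fusion to a ubiquitin-like protein.

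Per the labels, HaCaT cells were given the oncogenic mutant HRasG12V, and these HaCaT-Ras cells were then transduced with THG-1 (S264A), with THG-1 wild type or with an empty vector, so that all 3 lines carry HRasG12V. THG-1 is the protein of TSC22D4, and S264A replaces a serine by alanine. RNA was sequenced from 1 library per line, grown in DMEM with fetal bovine serum. The promoter of the vectors, the endogenous TSC22D4 that the host cells keep making, and whether a line is a clone or a pool are not described in the sources used here. The table gives RPKM, which are reads per kilobase of gene scaled to the depth of the library.

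The libraries held 14022885 reads for S264A, 12733479 for wild-type THG-1 and 32055052 for empty vector. TSC22D4 stood at 51.1 RPKM in the S264A line and 64.9 RPKM in the wild-type line, against 7.98 RPKM with empty vector, which goes with the labels. All 8 keratinocyte markers examined were at or above 1 RPKM in every line, and their summed level was 1252, 1093 and 982 RPKM with S264A, wild type and empty vector. The sum does not stand for each marker. In the same lines KRT14 had 382, 287 and 119 RPKM, while KRT5 had 329, 240 and 367 RPKM. The summed markers of fibroblasts, immune cells and melanocytes stayed below 1 RPKM in every line, and of the 2 endothelial markers measured 1 passed 1 RPKM, in the S264A line. With 1 library per line there is no spread between replicates, so no p-value is given, and a difference between lines cannot be told apart from a difference between cultures. The 95% intervals below are exact counting intervals from whole reads recovered from the RPKM values, and they cover counting error only.

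A cytosolic ribosome consists of a small subunit, which reads the messenger RNA, and a large subunit, which joins amino acids and threads the new chain through an exit tunnel. Most ribosomal proteins are present once per ribosome, and their genes are transcribed at high levels in dividing cells. Their mRNAs start with a C followed by an unbroken run of pyrimidines, the terminal oligopyrimidine or TOP motif, through which the kinase complex mTORC1 and the protein LARP1 control their translation and stability. MYC is a known activator of many of these genes and of the factors that assemble ribosomes. In a keratinocyte, ribosome production goes with proliferation in the basal layer.

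The TOP motif is the sequence feature that these genes share, and it was looked up in RefSeq promoter windows of the GRCh38.p14 build, in which 62 of the 77 members had an entry. Of these, 46 (74.2%) began with a C and at least 4 further pyrimidines, against 5.14% of 27305 genes with a window. The share was 73.7% (28 of 38) for the large and 75% (18 of 24) for the small subunit. Where a gene had several entries, the one with the longest run was used, for members and all genes alike. Within the 300 bases around the start, read on both strands, CCGGAAGT, a core bound by ETS factors such as GABP, was in 14.5% of the members and 4.95% of all genes, and the TATA box TATAAA in 8.06% and 14.0%. These are matches of letters and say nothing of binding. The sequences below belong to members whose values stood farthest from the rest of the group, 2 of them on chromosome 5 and 2 on chromosome 4, and RPS26 is added as a low member without the run. Each line gives 20 bases before and 10 bases from the annotated start, 5′ to 3′, with the run of pyrimidines that spans the start in capitals.
RPL13 at chr16:89560662-89560691, plus strand: gtgcattgcggggccgCTTCCTTTCCgctc
RPL29 at chr3:51995886-51995915, minus strand: tgctgcaccgcagCCCCTTTCTCTTCCggt
RPS12 at chr6:132814549-132814578, plus strand: ggcatgcgtgcggatgaggCCTCTTTCCCT
RPS14 at chr5:150449730-150449759, minus strand: tcgctccgccccctcccaCTCTCTCTTTCC
RPS23 at chr5:82278345-82278374, minus strand: ctccttcctgcggtgCTTCTCTCTTTCgct
RPS3A at chr4:151099608-151099637, plus strand: tcgcgcgactcccacttccgCCCTTTTggc
RPL34 at chr4:108620556-108620585, plus strand: ctggcaaaggCTTTTTTCTTCCTCTTCCgg
RPS25 at chr11:119018334-119018363, minus strand: ccgtttctgagcagcgCTTCCTTTTTgtcc
RPS26 at chr12:56041898-56041927, plus strand: gctgggagacacataacctcgattttcttc
The run was present both in members that were higher in a THG-1 line, such as RPL13 and RPS25, and in members that were lower, such as RPS14 and RPS23.

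All 77 members were transcribed in every line, each at 20 RPKM or more. The median member stood at 90.5 RPKM with S264A, 113 RPKM with wild type and 112 RPKM with empty vector. Together the members took 2.58% of all reads in the S264A library (2.57% to 2.58%), 2.97% in the wild-type library (2.96% to 2.98%) and 2.98% in the empty-vector library (2.97% to 2.98%). Their share of all RPKM, which gives short genes the same weight as long ones, was 3.56%, 3.79% and 4.20% in the same lines. The reads behind a member ranged over 545 to 16793 with S264A, 576 to 15153 with wild type and 1340 to 44063 with empty vector. For 34 of the 77 members the reads rest on the smallest length that gave whole reads. These reads and the shares of reads can thus be too low, which the intervals do not cover. RPKM are relative to the library, so less RNA of these genes per cell and more RNA of other genes cannot be told apart, nor can fewer cells that make an RNA and less of it per cell.

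RPL7A, a large-subunit protein gene, was the highest member in both THG-1 lines, at 534 RPKM with S264A and 529 RPKM with wild type, against 514 RPKM with empty vector. RPS2, whose protein sits at the mRNA entry channel, led with empty vector at 569.7 RPKM and stood at 399 RPKM with S264A and 421 RPKM with wild type. RPL41, which encodes the shortest ribosomal protein, followed at 408, 411 and 433 RPKM with S264A, wild type and empty vector, and RPL35, RPL8, RPL13A, RPS12, RPS18, RPS21 and RPLP0 completed the 10 highest by mean. At the lower end RPS26, whose protein lies near the mRNA exit channel, stood at 24.3, 28.3 and 26.1 RPKM, and RPL34 at 34.4, 26.7 and 31.1 RPKM. RPL37, RPS29 and RPL22 were the other members among the 5 lowest. The order of the members was almost the same in every line, with a Spearman coefficient of 0.97 for S264A and wild type, 0.97 for S264A and empty vector and 0.98 for wild type and empty vector (77 genes, as a description). The order among genes carries the lengths used in RPKM. The lengths recovered here ranged over 767 bases for RPS12 to 8153 for RPL37. For 43 members this was the annotated length over all exons, and for 34 the smallest length that gave whole reads, which can be too short. Mean RPKM and the recovered length had a Spearman coefficient of -0.56. A low RPKM such as that of RPL37 may thus reflect the length used, and the number of molecules was not measured.

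**Figure D1:**
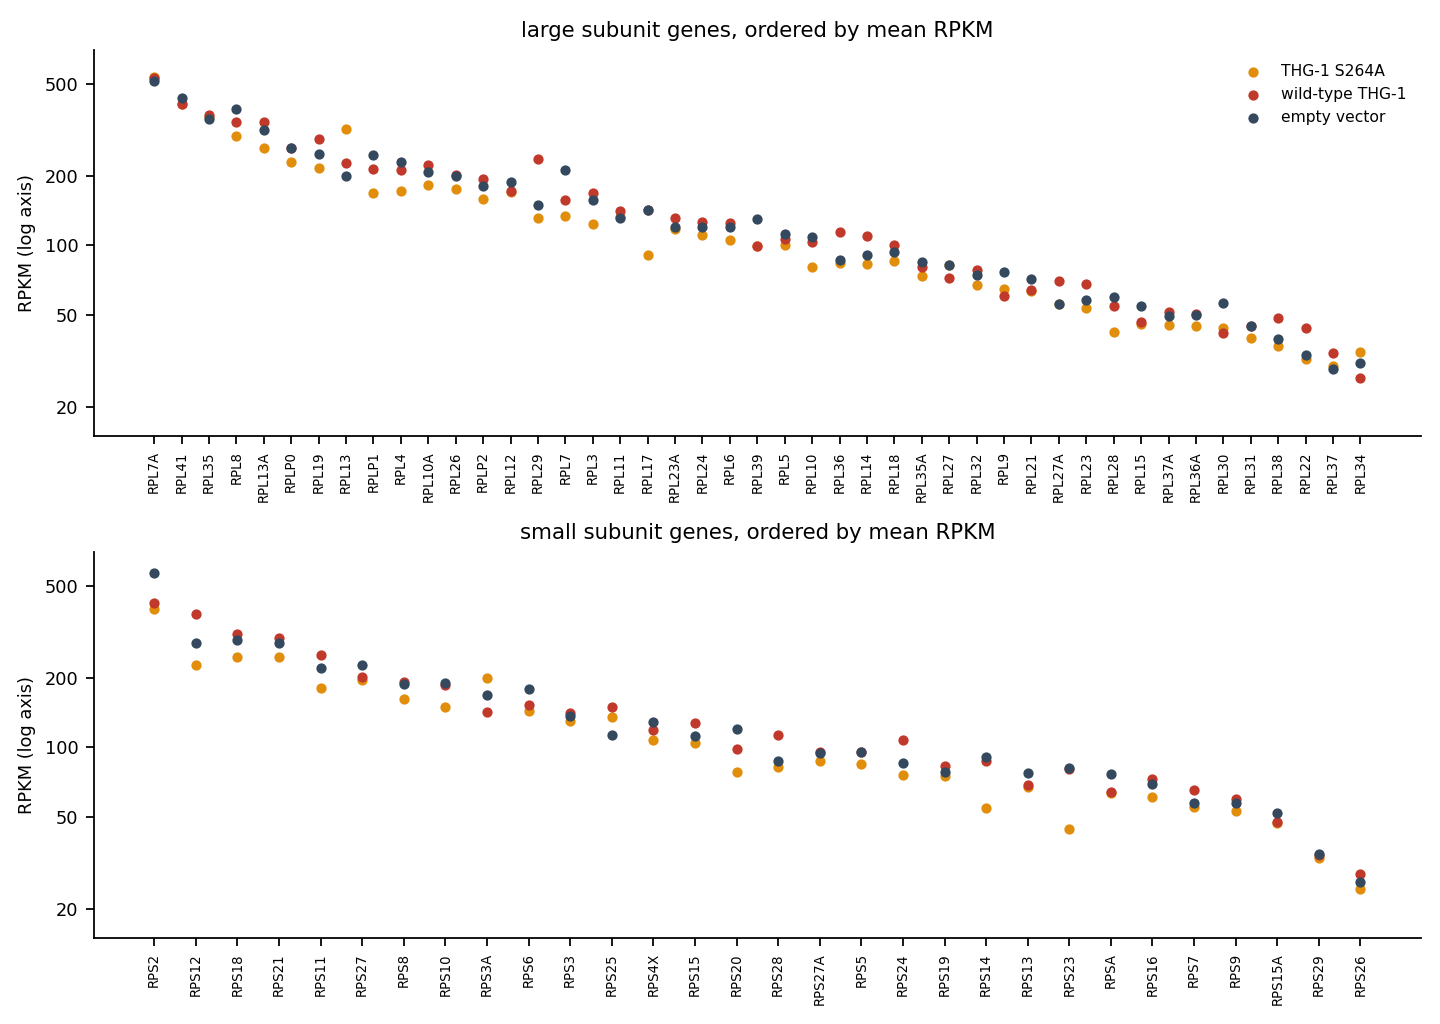
RPKM of 75 of the 77 ribosomal protein genes in the S264A (orange), wild-type THG-1 (red) and empty-vector (dark) libraries, on a log axis, with large-subunit genes above and small-subunit genes below. Each point is 1 library; the levels range over 24.3 to 569.7 RPKM, the order of genes is much the same in the 3 lines, and RPL13, RPL29, RPS12 and RPS23 are among the genes whose points lie farthest apart.

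Large-subunit genes stood somewhat above small-subunit genes in every line. The mean large-subunit gene stood at 133 RPKM with S264A, 151 RPKM with wild type and 148 RPKM with empty vector, and the mean small-subunit gene at 117, 139 and 139.8 RPKM. The ratio of the means was 1.13, 1.08 and 1.06 with S264A, wild type and empty vector. The medians were 100.1 RPKM for the large and 84.3 RPKM for the small subunit with S264A, 119 and 108 RPKM with wild type, and 120.5 and 95.4 RPKM with empty vector. Summed over genes, the ratio of large to small was 1.68, 1.61 and 1.57, since the large subunit has more genes. The large-subunit genes took 65.9%, 65.4% and 64.5% of the members' reads as recovered, which can be understated for 34 of the 77 members.

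The comparison of wild-type THG-1 with empty vector asked what the protein changes in the presence of oncogenic HRas. On the scale of log2 RPKM + 1, the members had a median difference of 0.04, against -0.01 over the 12012 genes at or above 1 RPKM in either library, and all 77 passed that filter. This small median turned to -0.12 with libraries scaled to an equal sum, -0.23 with the same upper quartile and -0.13 in the authors' quantile-normalised columns, while all genes stood at -0.14, -0.23 and -0.05. By any amount 33 of 77 were lower (42.9%), against 50.5% of all genes. No member was 2-fold higher (4.53% of all genes were) or 2-fold lower (1.56%). At a difference of at least 0.32 on this scale, 7 members were higher (9.09% of them, and 22.4% of all genes) and 6 were lower (7.79%, and 20% of all genes). The members thus spread less than genes at large, and their SD of 0.23 was larger than the 0.05 by which the median counting interval reached to either side.

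RPL29, which encodes a large-subunit protein also known for binding heparin, was the member farthest above the group in the wild-type line, at 237 RPKM against 149.99 RPKM with empty vector, a ratio of 1.58 (1.53 to 1.63). It stood at 131 RPKM with S264A. RPS12, whose product acts in cell competition in Drosophila, had 378 RPKM with wild type against 284 RPKM with empty vector, a ratio of 1.33 (1.28 to 1.39), and the S264A line held 227 RPKM. In both genes the wild-type library was thus above the empty-vector library and the S264A library below it. RPS25, needed for initiation at several internal ribosome entry sites, was higher in both THG-1 lines, at 135 RPKM with S264A and 150 RPKM with wild type, against 113 RPKM with empty vector. RPL36 (ratio 1.32), RPL22 (1.31), RPS28 (1.30) and RPS24 (1.26) completed the 7 genes that were higher with wild type. RPS2, RPL30, RPL7, RPL39 and RPL9 were among the 6 that were lower. RPS2 had a ratio of 0.739 (0.725 to 0.754) in the wild-type line.

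The S264A line, which carries THG-1 without this serine, was compared with empty vector in the same way. Here most members lay lower. Their median was -0.18 against 0.02 over 12032 genes, and it lay between -0.18 and -0.38 under the 5 scalings, as deposited and 4 others. Relative to the median of all genes it lay between -0.15 and -0.22 under them. In all, 69 of the 77 were lower by any amount (89.6%), against 47.8% of all genes. Past 0.32, 16 were lower (20.8%, against 13.5% of all genes) and 1 was higher (1.30%, against 18.6%), and at 2-fold 1 was lower (0.823% of all genes were) and 0 were higher (3.01%). So the shift was small for each gene and shared by most of them. The large subunit had a median of -0.16 and the small subunit of -0.19, a difference of 0.03 that became 0.0057 without the 23 members that have a copy or readthrough row at 1 RPKM or more.

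RPL13, a large-subunit protein gene, was the 1 member past 0.32 above empty vector in the S264A line, at 317 RPKM against 201 RPKM with empty vector, a ratio of 1.58 (1.55 to 1.62). The wild-type line stood at 228 RPKM. RPS23, whose protein lies at the decoding centre, had 44.4 RPKM with S264A against 81.4 RPKM with empty vector, a ratio of 0.545 (0.522 to 0.569), while the wild-type line held 80.3 RPKM. RPS14, the ribosomal protein gene known from the 5q- form of myelodysplasia, had 54.4 RPKM with S264A against 90.4 RPKM with empty vector (0.602, 0.580 to 0.625) and 86.8 RPKM with wild type. RPL17, whose protein lines the exit tunnel, had 90.5 RPKM with S264A against 142 RPKM with empty vector (0.637, 0.612 to 0.663) and 142 RPKM with wild type. In RPS23, RPS14 and RPL17 the S264A library stood alone below the other two. RPL7, with 134, 158 and 212 RPKM for S264A, wild type and empty vector, was lower in both THG-1 lines. Further members past 0.32 below empty vector were RPS20, RPLP1, RPS2, RPL28, RPL10, RPL4, RPL8, RPL39, RPL30, RPL3 and RPS10.

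S264A was then set against wild-type THG-1, a comparison that shares its libraries with both others. The members had a median of -0.21, against 0.02 over 12090 genes, and -0.05 to -0.22 under the 5 scalings, the smallest in the authors' quantile-normalised columns. Relative to the median of all genes, which moves with the scaling, they lay at -0.07 to -0.23, again the smallest in those columns. Over the 6150 genes at or above 5 RPKM in either library, a level that all members passed, the median was -0.04 as deposited. Genes at higher levels were thus somewhat lower with S264A as well. By any amount 69 of 77 were lower with S264A (47.6% of all genes were). Past 0.32, 23 were lower (29.9%, against 17% of all genes) and 3 were higher (3.90%, against 19.1%), and at 2-fold 0 were lower (2.23%) and 0 higher (1.57%). The 3 that were higher were RPS3A, with 199 RPKM for S264A against 143 RPKM for wild type (1.40, 1.34 to 1.45), RPL13 (1.39, 1.36 to 1.43) and RPL34 (1.29, 1.19 to 1.39). Among the farthest below were RPL29 (0.553, 0.530 to 0.577), RPS23 (0.553, 0.526 to 0.580), RPS12 (0.601, 0.570 to 0.632) and RPS14 (0.627, 0.600 to 0.655). The subunits had medians of -0.20 for the large and -0.21 for the small, a difference of 0.01 whose sign turned under several settings.

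**Figure D2:**
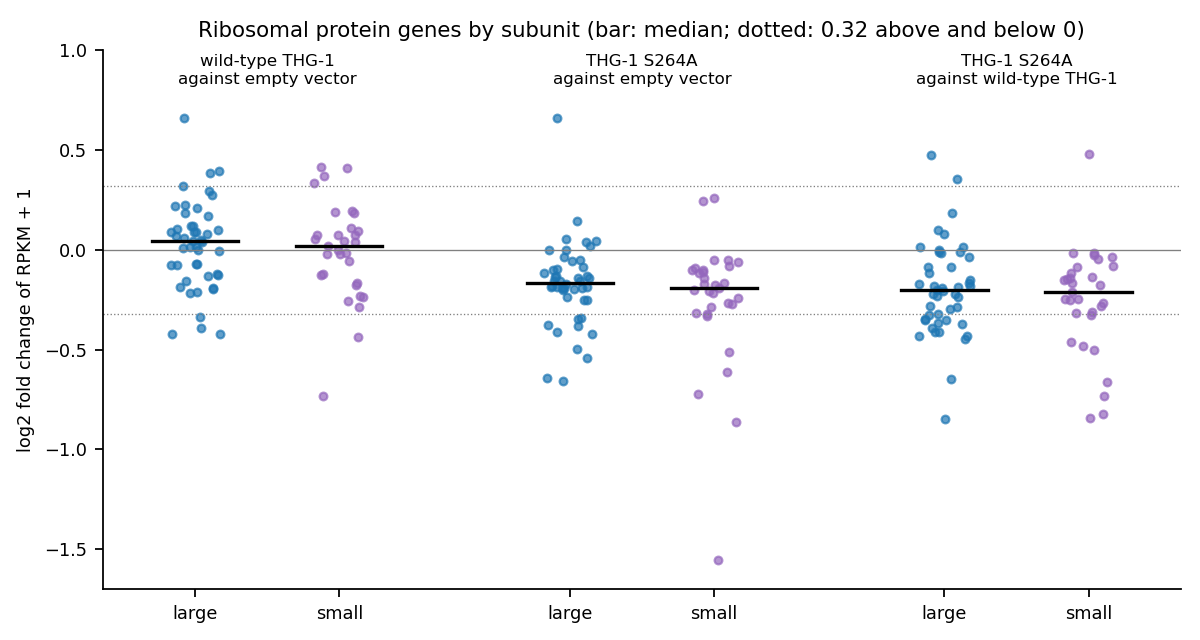
Log2 fold change of RPKM + 1 of each ribosomal protein gene in the 3 comparisons, split into large (46 genes) and small subunit (31 genes), with the median as a bar and 0.32 above and below 0 as dotted lines. The medians of both subunits lie near 0 for wild type against empty vector (below 0 with 3 of the 5 scalings, where all genes are below 0 as well), at -0.16 and -0.19 for S264A against empty vector, and at -0.20 and -0.21 for S264A against wild type.

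By function, the 4 members of the P stalk and its base, the arm that recruits translation factors, were all lower with S264A than with empty vector. So were 89.6% of all members, and 47.8% of all genes. Their median of -0.19 was near that of all members (-0.18). RPLP0, its base, had 229 RPKM with S264A, 265 RPKM with wild type and 263 RPKM with empty vector. RPLP1 had 169, 215 and 246 RPKM and RPLP2 159, 193 and 181 RPKM in the same lines, so that the acidic stalk proteins, which work as a pair, differed between the lines in different amounts. RPL12, at the stalk base, had 170.2, 172 and 188 RPKM. RPL5 and RPL11, which carry the 5S RNA and, when free of ribosomes, bind MDM2, had 100.4, 107 and 112 RPKM and 133, 141 and 131 RPKM for S264A, wild type and empty vector. They were among the steadier members, with ratios of 0.898 (0.865 to 0.931) and 1.01 (0.974 to 1.05) for S264A against empty vector.

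Of the 10 genes for proteins around the exit tunnel, 9 were lower with S264A than with empty vector, much the share of all members (89.6%, against 47.8% of all genes), with a median of -0.18 and with RPL17 farthest below. RPL39, a small protein inside the tunnel, had 99.8 RPKM with S264A and 98.9 RPKM with wild type against 130.1 RPKM with empty vector, and was lower by a like amount in both THG-1 lines. RPL35, a docking site of the signal recognition particle at the tunnel exit, had 361, 366 and 351 RPKM and was within 1.04-fold of empty vector in both lines. Among the genes for mRNA entry and decoding, RPS3 had 130 RPKM with S264A, 141 RPKM with wild type and 137 RPKM with empty vector, next to the lower RPS2 and RPS23. RPS6, the substrate of the S6 kinases downstream of mTORC1, had 144, 153 and 179 RPKM, below empty vector in both THG-1 lines. RPSA, which is also known as the laminin receptor, showed the same order with 63.2, 64.0 and 76.6 RPKM.

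RPS19, the gene most often mutated in Diamond-Blackfan anaemia, was steady at 75.04, 83.3 and 77.8 RPKM with S264A, wild type and empty vector. RPL10, whose protein is among the last to join the large subunit, had 80.6, 103 and 108 RPKM. RPS27A, a fusion of ubiquitin with a small-subunit protein, had 86.9, 95.5 and 94.2 RPKM. RPL22, a protein whose loss is tolerated by many cells, had 32.3, 43.9 and 33.4 RPKM, so that the wild-type line alone was higher. FAU, outside the naming rule, had 101, 122 and 96.6 RPKM, within the range of the members.

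Several members that stood out in a comparison, though not all, lay near genes that differed in the same direction. For each member the median log2 fold change of the 50 nearest expressed genes on its chromosome that encode no ribosomal protein was set beside its own. Pearson's r over the 77 members was 0.57 for wild type against empty vector, 0.74 for S264A against empty vector and 0.70 for S264A against wild type (Spearman's rho 0.60, 0.68 and 0.66). The points share their libraries, and members of 1 chromosome can share neighbours, so these are descriptions. Other genes showed the relation as well. Over the 10482 other genes with a position r was 0.34, 0.47 and 0.43, and over the 850 of them at or above the mean level of the lowest member it was 0.26, 0.42 and 0.47. This comparison was chosen after the values were seen, and what the shared pattern comes from was not tested.

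RPL13 on chromosome 16 was 0.66 above empty vector in the S264A line on the log2 scale, and its neighbours had a median of 0.59. RPL17 on chromosome 18 stood at -0.64 with neighbours at -0.38, and RPS14 on chromosome 5 at -0.72 with neighbours at -0.31. The 4 members on chromosome 8, RPL7, RPL8, RPL30 and RPS20, were lower in both THG-1 lines, with medians of -0.50 with S264A and -0.35 with wild type. The 367 other genes of chromosome 8 had medians of -0.32 and -0.35, and 87.2% and 78.7% of them were lower. RPS25 on chromosome 11, higher in both THG-1 lines at 0.26 with S264A and 0.41 with wild type, had neighbours at 0.34 and 0.31. For S264A against wild type, RPS3A and RPL34 on chromosome 4 were 0.48 and 0.35 above, with neighbours at 0.38 and 0.41, while RPL3 on chromosome 22 was at -0.43 with neighbours at -0.57. For these genes the difference from the rest of the group was thus shared, in part or in full, with other genes at the same place. RPS14 still lay off its neighbours by -0.41, and no fixed cut-off parts these genes from those described next.

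Other members did not follow their neighbours or lay far beyond them. RPL29 was 0.66 above empty vector in the wild-type line with neighbours at 0.07, and RPS12 0.41 above with neighbours at -0.09. RPS2 stood at -0.44 in the wild-type line with neighbours at 0.15 and at -0.51 in the S264A line with neighbours at 0.09. RPS23 was at -0.86 in the S264A line and its neighbours at -0.29. RPL14, with 82.8, 110 and 91.2 RPKM for S264A, wild type and empty vector, and RPL12 also lay off their surroundings, RPL14 by 0.38 in the wild-type line and RPL12 by -0.46 in the S264A line.

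Set against their neighbours, most members were lower in the S264A line. In that line 73 of 77 were below their neighbours relative to empty vector, with a median difference of -0.19 (interquartile range -0.26 to -0.12). Of the other genes 50.4% were below theirs, and 53.4% of the 850 at or above the lowest member's level. In the wild-type line 36 of 77 were below, with a median difference of 0.02, against 50.5% of the other genes and 41.1% of those 850. For S264A against wild type 70 of 77 were below, with a median difference of -0.20, against 49.6% of all other genes and 65.3% of the 850 others at or above the lowest member's level. Multiplying a library by a constant leaves the difference between a gene and its neighbours as it is, apart from the pseudocount of 1 RPKM, but quantile normalisation changes it. In the authors' quantile-normalised columns 69 of 77 were below their neighbours for S264A against empty vector, with a median difference of -0.16. There 57 of 77 were below for wild type against empty vector (-0.10) and 50 of 77 for S264A against wild type (-0.07), so that most members lay below their neighbours in the wild-type line too and the difference between the THG-1 lines was smaller than as deposited. Of the 850 others, 53.1% (S264A against empty vector), 56.2% (wild type against empty vector) and 46.4% (S264A against wild type) were below theirs in those columns. Subtracting the neighbours brought the SD of the members to 0.18, against 0.27 before, for S264A against empty vector. For the 10482 other genes it went to 0.37 from 0.42, and for the 850 to 0.52 from 0.57. The members were thus more alike once the surroundings were taken out, and other genes were so too.

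**Figure D3:**
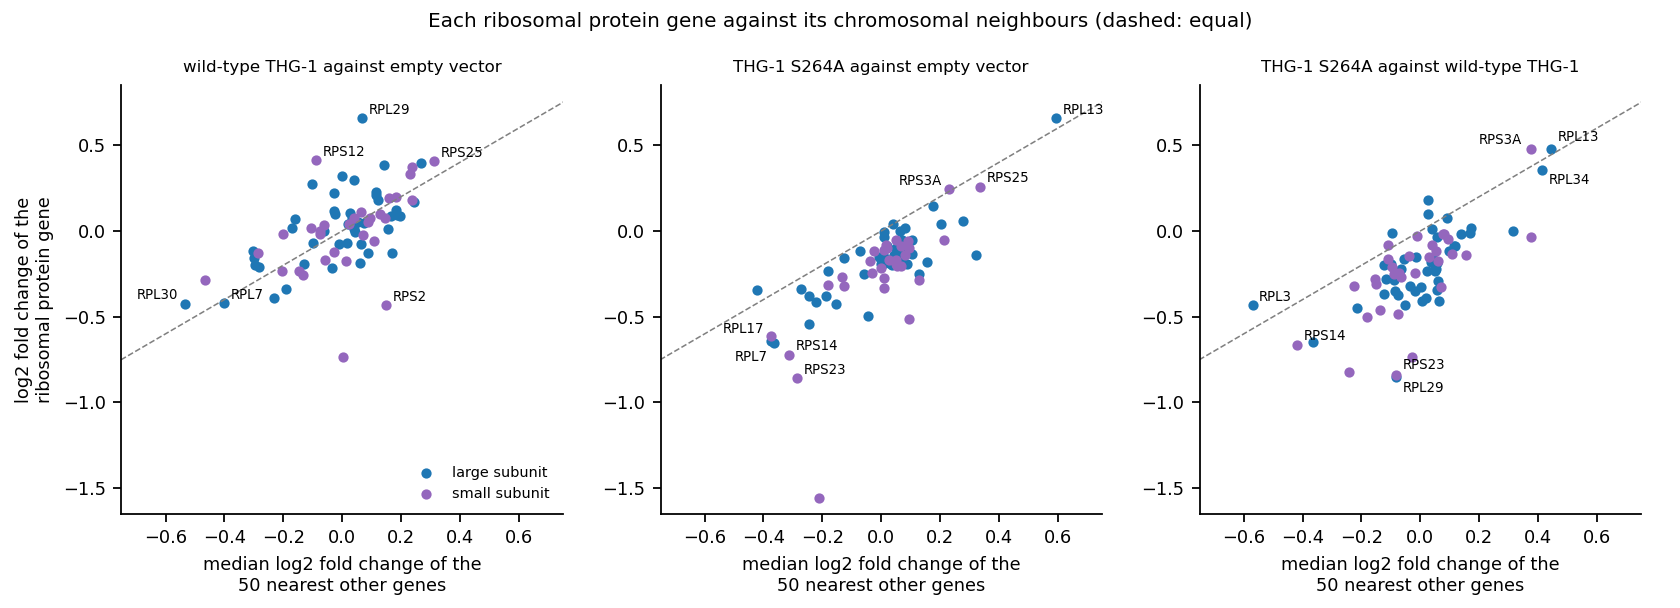
Each ribosomal protein gene's log2 fold change of RPKM + 1 (vertical) against the median of its 50 nearest expressed other genes on the chromosome (horizontal), for the 3 comparisons, with large-subunit genes in blue, small-subunit genes in purple and equality dashed. Points scatter around the dashed line for wild type against empty vector (36 of 77 below) and mostly lie beneath it for S264A against empty vector (73 of 77 below) and S264A against wild type (70 of 77 below), as deposited. In the quantile-normalised columns the counts are 57, 69 and 50 of 77. Of the other genes 50.5%, 50.4% and 49.6% are below theirs as deposited and 50.6%, 50.5% and 49.7% in those columns.

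Ribosomal protein genes have many processed pseudogenes and a few near-identical copies, and how the authors counted reads that match several places is not stated in the sources used here. RPS2 and its copy RPS2P46 (98.8% identical over 882 bases) moved together, with 66.4, 67.7 and 89.9 RPKM for the copy. Their summed RPKM differed from empty vector by -0.50 with S264A and -0.43 with wild type, close to RPS2 by itself.

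Several copies were lower with empty vector than in both THG-1 lines. RPL15P3 had 7.07 RPKM with S264A and 7.93 RPKM with wild type and was listed at 0 with empty vector. RPL9P7 had 6.24 and 8.96 RPKM in these lines against 0.195 RPKM with empty vector, and RPLP0P6 had 5.99 and 7.27 RPKM against 1.43 RPKM. With the RPKM of its copy added, RPL15 stood at -0.05 (S264A) and 0.01 (wild type) against empty vector on the log2 scale, and at -0.25 and -0.22 without it. This sum does not weigh the 2 rows by their reads. The copy held 54, 55 and 0 reads with S264A, wild type and empty vector, beside 2087, 1943 and 5696 for RPL15, at the smallest fitting lengths. How far RPL15 is uncertain as a single gene was thus not settled. Over all 843 pseudogene rows of the members, 27, 21 and 17 reached 1 RPKM with S264A, wild type and empty vector, and their sum without RPS2P46 was 133, 136 and 85.6 RPKM. Readthrough rows held few reads beside their members, the highest being RPL36A-HNRNPH2 with 11.3, 27.3 and 12.7 RPKM.

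**Figure D4:**
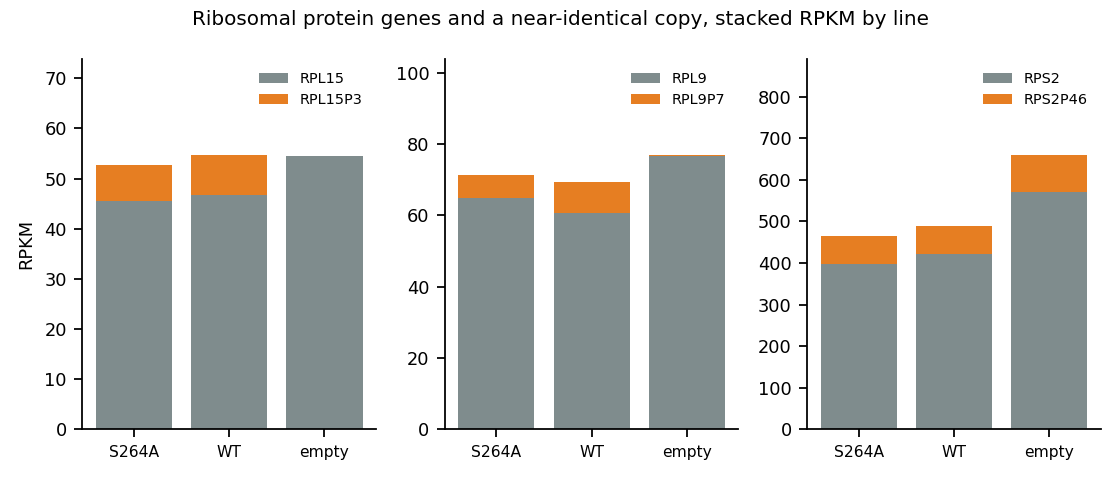
RPKM of RPL15, RPL9 and RPS2 (grey) with a near-identical copy stacked on top (orange) in the S264A, wild-type THG-1 (WT) and empty-vector libraries, 1 library per bar, each panel with its own axis from 0. RPL15P3 and RPL9P7 are present with S264A and wild type and at 0.195 RPKM or less with empty vector, and RPS2P46 follows RPS2. Stacked RPKM do not weigh a gene and its copy by their reads.

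The wider machinery around these genes was described from lists. Among 29 ribosome biogenesis factors measured, which process ribosomal RNA and assemble subunits, 18 were past 0.32 above and 0 past 0.32 below empty vector in the wild-type line, with a median of 0.37 (22.4% of all genes were higher). RRP9, a protein of the U3 particle, had 18.8 RPKM with wild type against 5.97 RPKM with empty vector, and the S264A line held 10.2 RPKM. NOP56, a core protein of box C/D particles, had 35.5 RPKM with S264A and 43.9 RPKM with wild type against 14.9 RPKM with empty vector. In the S264A line the list had a median of 0.11, with 4 higher and 4 lower (18.6% and 13.5% of all genes), and its median was -0.07 with upper-quartile scaling, where all genes stood at -0.15. Set against wild type, S264A had a median of -0.32, with 14 lower and 2 higher (17% and 19.1% of all genes). NPM1, the nucleolar chaperone nucleophosmin, had 100.02 RPKM with S264A, 196 RPKM with wild type and 159 RPKM with empty vector. The biogenesis factors and the ribosomal proteins thus both stood lower with S264A than with wild type, and in the wild-type line against empty vector the factors lay 0.28 to 0.38 over the median of all genes in the 5 scalings, the members -0.08 to 0.04.

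MYC had 54.6 RPKM with S264A and 80.1 RPKM with wild type, against 31.99 RPKM with empty vector. The 9 genes of the MYC network compared had medians of 0.17 with S264A and 0.30 with wild type against empty vector, the first of them at -0.0042 with upper-quartile scaling (all genes at -0.15), and -0.21 for S264A against wild type. The 17 other genes whose mRNAs carry a TOP motif, such as those for elongation and initiation factors, had medians of -0.13 with S264A and -0.08 with wild type. Past 0.32, 7 of the 17 were lower and 0 higher with S264A, where 13.5% of all genes were lower and 18.6% higher. With wild type 3 were lower, near the 20% of all genes, and 1 was higher, against 22.4%. EEF1A1, the most abundant of them, had 581, 659 and 771 RPKM with S264A, wild type and empty vector, and EIF3L had 16.1, 25.1 and 27.0 RPKM. For S264A against wild type this list had a median of -0.11, which became 0.0045 with libraries scaled to an equal sum. All genes stood at 0.02 and 0.12 in these settings, and relative to them the list lay at -0.13 and -0.11.

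The 18 genes of mTORC1 and its translation targets had medians between 0.01 and 0.03 in the 3 comparisons as deposited, below 0 with 3 of the 5 scalings in both comparisons with empty vector and with 2 for S264A against wild type. In the comparisons with empty vector the median of all genes was below 0 in those 3 scalings too. LARP1, the TOP mRNA binder, had 30.8, 46.6 and 38.8 RPKM with S264A, wild type and empty vector, and DDIT4, an inhibitor of mTORC1, had 70.8, 88.5 and 131 RPKM. The 11 RNA polymerase I genes had medians of 0.03 with S264A and 0.00014 with wild type, both of which were below 0 with 3 of the 5 scalings, where all genes were below 0 as well. Among the genes linked to the free 5S particle, CDKN1A, which encodes the cell cycle inhibitor p21, had 16.5 RPKM with S264A and 33.9 RPKM with wild type, against 8.78 RPKM with empty vector. MDM2 had 7.18, 7.13 and 7.48 RPKM. Chaperones, importins and quality factors of ribosomal proteins (21 genes) had medians of 0.04 and 0.06 with S264A and wild type, which also were below 0 in at least 1 scaling, where all genes were below 0 as well.

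The proteins of the mitochondrial ribosome, which are encoded by a separate set of nuclear genes, were chosen by symbol as well. Their 74 genes had medians of -0.07 with S264A and 0.08 with wild type, the second of which was below 0 in 3 of the 5 scalings. Relative to the median of all genes the second was 0.02 to 0.08. Past 0.32, 1 was higher and 7 were lower with S264A, and 9 were higher and 6 lower with wild type, each a smaller share than that of all genes (18.6% and 13.5% with S264A, 22.4% and 20% with wild type). Set against wild type, S264A had a median of -0.11 with 4 higher and 14 lower, against 19.1% and 17% of all genes. Of 8 paralogs of ribosomal protein genes 6 reached 1 RPKM. RPL36AL, the highest, had 76.3 RPKM with S264A and 79.5 RPKM with wild type against 58.3 RPKM with empty vector, and RPS27L had 2.00, 2.84 and 3.21 RPKM. RPL10L was listed at 0 in every line and RPL3L stayed below 0.2 RPKM, so that these paralogs, known for testis and muscle, were at or near 0 in these keratinocytes.

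**Figure D5:**
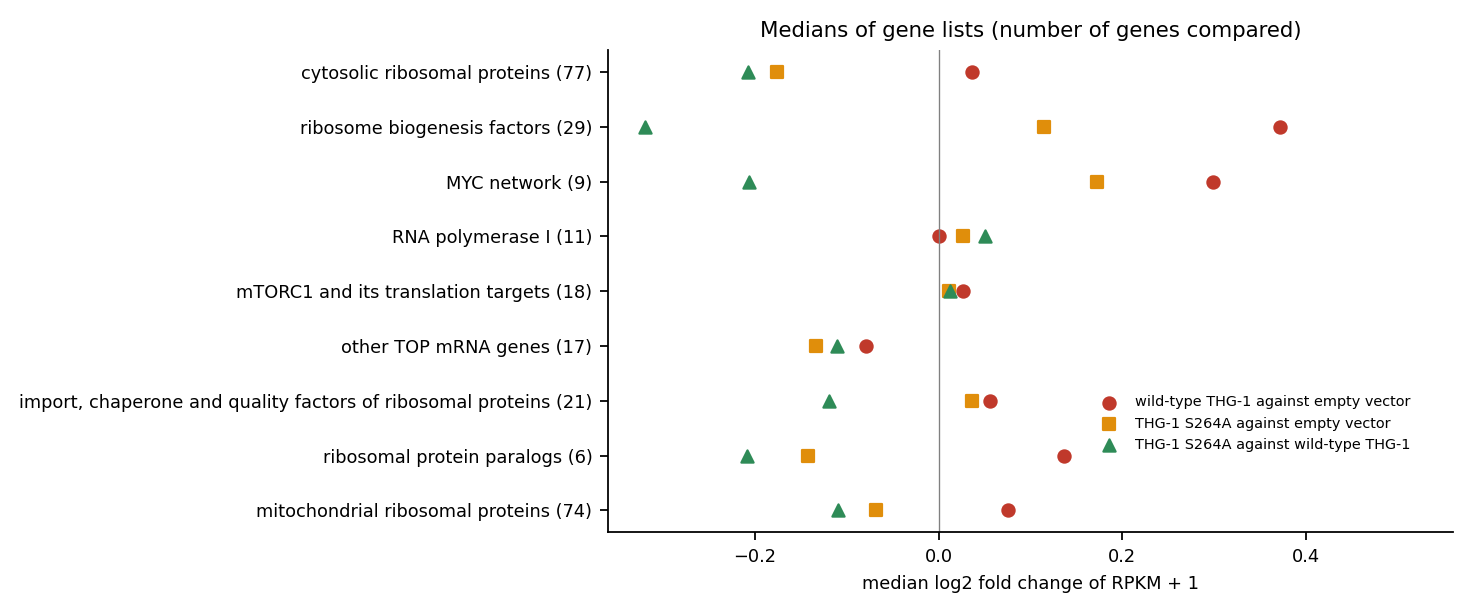
Median log2 fold change of RPKM + 1 of the ribosomal protein genes and of related gene lists, with the number of genes compared in brackets, for wild type against empty vector (circles), S264A against empty vector (squares) and S264A against wild type (triangles), as deposited. The ribosomal proteins stand at 0.04 (below 0 with 3 of 5 scalings, where all genes are below 0 as well), -0.18 and -0.21, and the ribosome biogenesis factors at 0.37, 0.11 (-0.07 with upper-quartile scaling, all genes at -0.15) and -0.32.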

How the data were processed

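RPKM were deposited by the authors in 2 columns per library, headed as expression values and as normalised expression values per the file headers. The second column was tested on its values, and it holds the first after quantile normalisation by the authors over the 3 libraries. Only hg19 is listed as a genome build, per the submitters' processing notes. Aligner, counter and strandedness have been left unstated, so they count as not given in the sources used here. RefSeq (GRCh38.p14) and GENCODE release 29 served for gene order, chromosomes, lengths and promoter sequences, and no coordinates of the files were used.

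RPKM steps gave whole reads (within 0.001 reads) for 77 of 77 members, 43 at the annotated length and 34 at the smallest fitting length, which can understate reads and widen intervals. Tested on simulated data, the recovery found 3 of 3 depths and the reads of 77 of 77 members when given their lengths, and of 70 of 77 otherwise. Intervals are exact Clopper-Pearson 95% intervals. Fold changes are log2((RPKM + 1)/(RPKM + 1)) over genes at or above 1 RPKM in either library, which understates low genes. Counts used a difference of 2-fold and one of 0.32 on the log2 scale.

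Each line is 1 library, so that no test across lines was run. The members and lists were chosen with earlier results of these data known. Members named are the 10 highest and 5 lowest by mean RPKM, the 5 farthest above and below the median in each comparison, and members fixed by role. Members beyond this rule, named to complete a count or for their neighbours or copies, were chosen after their values were seen. Some members and related genes are not reported by name, and counts and medians over the members include them. Of 11404 genes with a mean of at least 1 RPKM, 10603 had a position. Alternatives covered the pseudocount, the filter, 4 other scalings and the membership. Python 3.11.15, numpy 2.4.6, pandas 2.3.3, scipy 1.17.1 and biopython 1.88 were used.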

Additional observations from a re-analysis of the deposited data

How the results depend on the processing

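No paired analysis was possible because each line has 1 library, and no replicate could be left out. Of the results for wild-type THG-1 against empty vector, the member median of 0.04 became -0.12 with an equal sum of RPKM, -0.23 with the same upper quartile and -0.13 in the quantile-normalised columns. All genes stood at -0.14, -0.23 and -0.05 there. In the same order the count past 0.32 on the log2 scale above was 1, 1 and 2 (7 as deposited) and the count past 0.32 below 17, 27 and 16 (6 as deposited). For S264A against empty vector the median was -0.38 and the count lower 51 with the upper quartile, where all genes stood at -0.15. For S264A against wild type the median was -0.093 with an equal sum and -0.055 when quantile-normalised, and the count lower was 10, 15 and 9 with the equal sum, upper quartile and quantile columns. All genes stood at 0.12, 0.07 and 0.02 in these settings. The share of all genes past 0.32 was not worked out under these scalings, so the counts under them say nothing particular to the members. The large-minus-small difference for S264A against wild type, 0.01, became -0.016 with a pseudocount of 5 RPKM, -0.010 when quantile-normalised and -0.00095 without the 23 members that have a copy or readthrough row at 1 RPKM or more. The last setting also turned the wild type against empty vector difference to -0.015, with 3 members lower, and left 0 higher for S264A against empty vector and 1 higher for S264A against wild type. Settings without these members, and with 20 or 100 neighbours, were chosen after seeing the data. With 20 and 100 neighbours, r was 0.50 and 0.59 for wild type against empty vector, 0.72 and 0.74 for S264A against empty vector, and 0.73 and 0.70 for S264A against wild type. The share of summed RPKM was 3.63%, 3.82% and 4.11% (S264A, wild type, empty vector) when quantile-normalised. The large-to-small ratio was 1.71 (S264A) and 1.57 (empty vector) when quantile-normalised. A wider membership, planned as an alternative, is not reported here. Within their sign, the large-minus-small differences also moved, for wild type against empty vector to 0.0046 when quantile-normalised (0.02 as deposited), for S264A against empty vector to 0.0057 without members that have a copy (0.03) and for S264A against wild type to 0.014 with a pseudocount of 0.1 RPKM (0.01). In the quantile-normalised columns, a setting added after seeing the data, r with 50 neighbours was 0.58, 0.75 and 0.69 for wild type against empty vector, S264A against empty vector and S264A against wild type, and the members below their neighbours numbered 57, 69 and 50, against 36, 73 and 70 as deposited. The shares of other genes below theirs were 50.6%, 50.5% and 49.7% in these columns and 50.5%, 50.4% and 49.6% as deposited. The causes of these shifts were not tested. At these depths a difference under about 0.06 on the log2 scale is within counting error for the median member.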
